A study of Mus musculus with 12 samples.

Results

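The 10 genes described here encode proteins that make, carry or consume vitamin A derivatives in the eye. They were chosen by symbol, as genes of the visual cycle, of retinoid transport and of retinaldehyde oxidation, from the 53090 gene rows of the series. All 10 were found, each in 1 row, and all 10 passed the filter on low counts that left 18638 genes for testing, Rpe65 through its P9 libraries alone. Ribosome-bound RNA was pulled down through an HA tag from retinas of C57BL/6 mice for each library, with retinal pericytes given as the cell type. Every animal received tamoxifen on postnatal days 1 and 2, and retinas were taken on postnatal day 3 (P3, 6 libraries) or day 9 (P9, 6 libraries). The labels do not say which driver switches on the tag, or whether a library holds 1 animal, so p-values measure the spread between libraries, which may be partly technical. The time since tamoxifen was longer at P9 and cannot be told apart from age.

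Light changes the cis form of retinal, bound to opsin in photoreceptors, into the all-trans form. Photoreceptor dehydrogenases reduce it to retinol, which crosses the interphotoreceptor space to the retinal pigment epithelium. There it is esterified, isomerised and oxidised back to the cis form, a loop called the visual cycle. Retinaldehyde dehydrogenases draw on the same retinal to make retinoic acid, the ligand of nuclear receptors that pattern the embryonic eye, and enzymes of the Cyp26 family break it down.

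Totals ran from 26839600 to 37776200 expected counts per library, so that 1 CPM (the unit of level used throughout, a count divided by library size in megacounts after TMM scaling) rested on 25.8 to 38.5 counts. Over all tested genes, 51.8% passed an adjusted p of 0.05 in edgeR's quasi-likelihood test of P9 against P3, 26.1% higher and 25.6% lower at P9, and 31.7% had no overlap between the 6 P3 and the 6 P9 values. The 12 pericyte markers summed to between 360 and 1343 CPM at P3 and between 2832 and 6377 CPM at P9. Their transcripts were thus present at both ages, with 11 of 12 higher at P9. All 12 libraries were pulldowns, so enrichment of pericyte RNA over whole retina was not measured. The labelled tissue is retina, yet 13 markers of pigment epithelium and other pigment cells were present too, at a sum of 52.7 to 107 CPM at P3 and 69.6 to 108 CPM at P9. P9 replicates 5 and 6 carry each other's sample name in the labels, so which of the pair a value belongs to is uncertain, although both are P9. In such pooled RNA, fewer cells of a type and less RNA per cell cannot be told apart.

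Promoter sequence is shown first for the genes whose windows hold a shared motif. RefSeq windows on GRCm38.p6, reaching from 250 bases before to 50 bases after a start site, were found for 8 of the 10 genes. The motif TAATCC, bound by the photoreceptor and pigment epithelium factors Crx and Otx2, was searched on both strands. It occurred in the windows of Rpe65, Rbp3 and Rgr, and in 7.06% of all 32851 promoter windows. Among the other genes of the retinoid pathway with a window it occurred in 4 of 41, one of them the retinal transporter gene Abca4. The stretches that hold it are printed 5′ to 3′ on the strand of the gene, with the match in capitals, where GGATTA is the same motif on the opposite strand.
Rpe65, chr3:159599081-159599180, plus strand: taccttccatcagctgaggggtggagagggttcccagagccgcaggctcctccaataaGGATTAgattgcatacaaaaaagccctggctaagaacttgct
Rbp3, chr14:33953903-33954002, plus strand: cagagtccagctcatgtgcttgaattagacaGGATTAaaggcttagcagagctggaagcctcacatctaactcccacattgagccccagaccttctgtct
Rgr, chr14:37049115-37049214, minus strand: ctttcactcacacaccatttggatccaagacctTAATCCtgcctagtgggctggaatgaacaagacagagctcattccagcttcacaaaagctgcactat
Abca4, chr3:122044360-122044459, plus strand: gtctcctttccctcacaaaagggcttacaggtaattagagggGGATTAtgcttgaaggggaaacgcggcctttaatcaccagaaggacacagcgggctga
The Rpe65, Rbp3 and Abca4 stretches are the 100 bases before the start site of their window, and the Rgr stretch lies further upstream. For Rpe65 and Abca4 this start site is an inner one. Their gene spans begin further upstream, at 159599075 and 122043891, so both stretches lie inside the span. Abca4 was picked for display after its values were seen. The other pathway genes with the motif were Rdh1, called higher at P9, Cyp26c1, called lower, and Bco1, too low to be tested, so the motif went with both directions. A match is a description of letters and not a measured binding site. The E-box CATGTG, which Mitf can bind, was in the windows of Rpe65, Rbp3 and Rgr too and in 14.15% of all windows. The E-box CACGTG, in 7.15% of windows, was in none of the 8 genes' windows, nor were a pair of AGGTCA elements in the same direction spaced by 5 or by 2 bases, each in 0.0091% of windows.

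Of the 10 retinoid genes, 6 were called higher and 2 lower at P9 and 2 missed the threshold, against 51.8% of all genes passing. Rpe65 is among the 6 but passed the filter only through the age where it is high, so its call had to be a difference. The ages were fully separate for 7 of the 10, against 31.7% of all genes. Rpe65 is among these 7 too, and the filter fixed its separation in advance. The median log2 fold change of P9 over P3 was 1.40 over the 10 genes, Rpe65 included, and -0.0018 over all tested genes. Levels are not compared between genes, since transcript lengths were not used here.

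**Figure D1:**
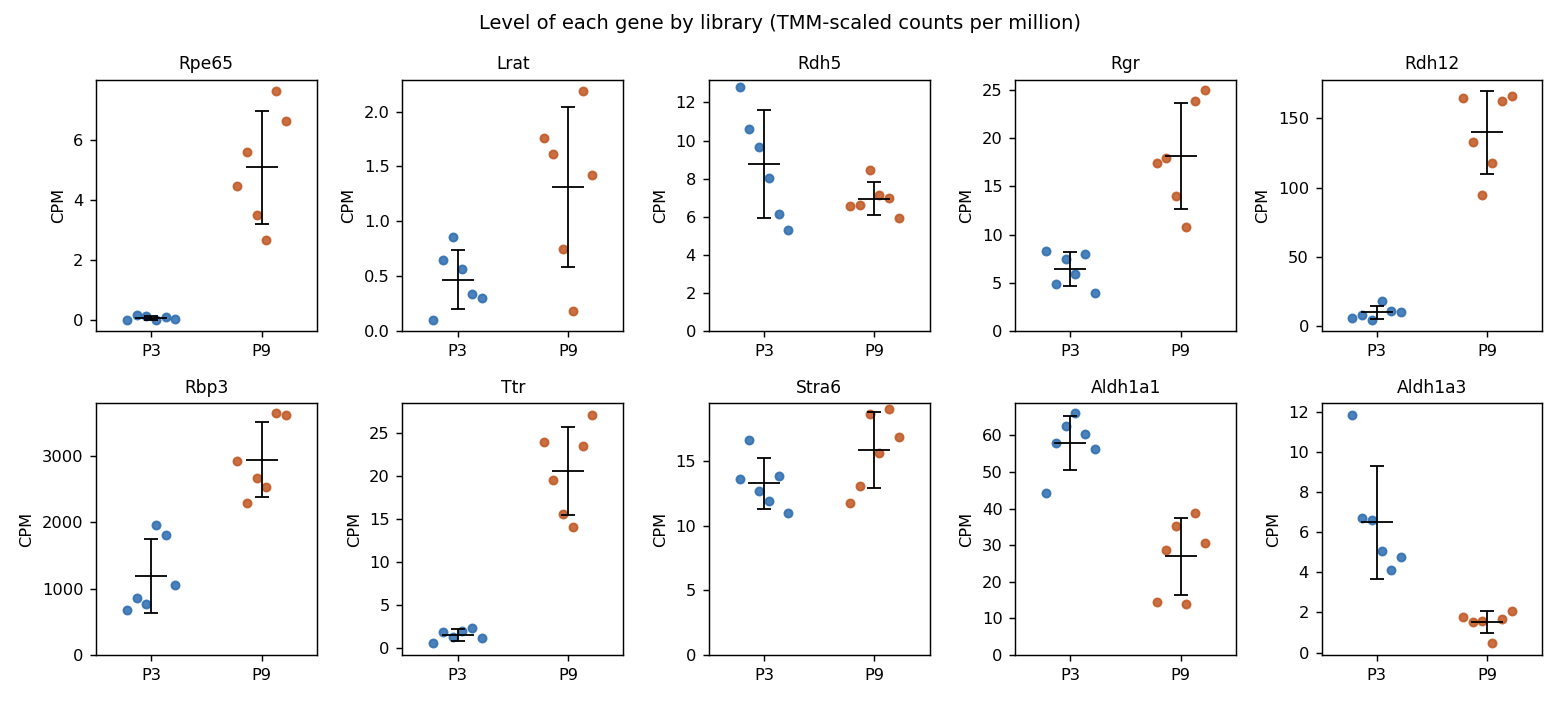
CPM (TMM-scaled) of each of the 10 retinoid genes in 6 P3 and 6 P9 libraries. Each point is a library, the horizontal mark is the mean and the bar 1 SD; the points of the ages do not overlap for Rpe65, Rgr, Rdh12, Rbp3, Ttr, Aldh1a1 and Aldh1a3.

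Of the pigment epithelium genes of the visual cycle, Rpe65 was near absence at P3 and present at P9, Rgr rose, Lrat rose with a call that depended on single libraries, and Rdh5 did not pass the test. Rpe65 (ENSMUSG00000028174.12, chromosome 3, 159599075 to 159625307) encodes the isomerase that turns retinyl ester into the cis form of retinol. Its lowest, median and highest levels were 0, 0.061 and 0.143 CPM at P3 and 2.66, 5.02 and 7.61 CPM at P9. All P9 libraries were far above all P3 libraries, of which 2 held no count at all. The 6 P3 libraries together held 11 counts and the 6 P9 libraries 1056. The mean went from 0.064 ± 0.062 to 5.07 ± 1.88 CPM (means ± SD of 6 libraries), with a log2 fold change of 6.29 ± 0.55 (SE; edgeR adjusted p = 4.25e-07). Because no P3 library reached the filter's cutoff of 0.300 CPM, this value describes a gene that could enter the test only by being high at P9, and its size rests on few counts.

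Lrat (ENSMUSG00000028003.6, chromosome 3, 82892582 to 82903974), the acyltransferase that esterifies retinol and so supplies Rpe65 with its substrate, stood at 0.099, 0.452 and 0.853 CPM at P3 and 0.181, 1.51 and 2.19 CPM at P9 (lowest, median, highest). The ages overlapped, with P9 replicates 3 and 4 (0.742 and 0.181 CPM) below the highest P3 library. Lrat rose with a log2 fold change of 1.497 ± 0.56 (SE; edgeR adjusted p = 0.0373) from only 83 counts over the P3 libraries. This call depended on single libraries. Dropping P3 replicate 1, 5 or 6 ended it (adjusted p of 0.0644, 0.0691 and 0.0724), as did dropping P9 replicate 1, 2, 5 or 6 (0.0731, 0.0667, 0.0901 and 0.0612), and so did limma-voom (adjusted p = 0.114).

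Rgr (ENSMUSG00000021804.6, chromosome 14, 37034909 to 37049014) encodes an opsin of pigment epithelium and Müller glia that binds all-trans retinal. It ranged from 4.003 to 8.29 CPM at P3 around a median of 6.68, and from 10.8 to 24.97 CPM at P9 around a median of 17.7. The lowest P9 library was above the highest P3 library. The mean rose from 6.43 ± 1.77 to 18.1 ± 5.49 CPM (means ± SD of 6 libraries each), giving a log2 fold change of 1.498 ± 0.23 (SE; edgeR adjusted p = 6.33e-05). Markers of Müller glia, the other cells known to make Rgr, summed to 1202 to 1620 CPM at P3 and 1438 to 2046 CPM at P9, with 6 of 11 higher, 2 lower and 3 not past the threshold, and their part in the change of Rgr was not tested.

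Rdh5 (ENSMUSG00000025350.15, chromosome 10, 128913588 to 128920037), the dehydrogenase that completes the cycle by oxidising the cis form of retinol, stood at 5.30, 8.85 and 12.8 CPM at P3 and 5.95, 6.78 and 8.48 CPM at P9 (lowest, median, highest). The P9 libraries lay inside the P3 range. Its log2 fold change was -0.33 with a 95% interval from -0.75 to 0.088 (edgeR adjusted p = 0.173). A rise of the size seen for Rgr lies outside that interval, whereas a modest fall lies within it. Part of the reads assigned to Rdh5 were shared with other rows by the estimation of expected counts, since its counts were not whole.

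Of 12 tested markers of pigment cells, 0 rose, 1 fell and 11 did not pass, with a median log2 fold change of -0.14. The most abundant were Pmel and Dct, which act in the melanosome, and Slc24a5, an ion exchanger of the same organelle. Pmel was at 28.2 ± 9.91 CPM at P3 and 30.8 ± 9.79 CPM at P9 (SD, n = 6 per age). Dct was at 12.4 ± 4.06 and 17.5 ± 4.27 CPM (edgeR adjusted p = 0.0726). Slc24a5 was the member that fell, from 21.3 ± 5.57 to 15.4 ± 1.72 CPM (edgeR adjusted p = 0.0235), a call that was lost when P3 replicate 1, 2 or 3 was dropped (0.0534, 0.0620 and 0.0554) and likewise for P9 replicate 5 or 6 (0.0518 and 0.0540). Best1, a channel gene of pigment epithelium rather than of melanocytes, was at 0.501 ± 0.362 and 0.639 ± 0.320 CPM.

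**Figure D2:**
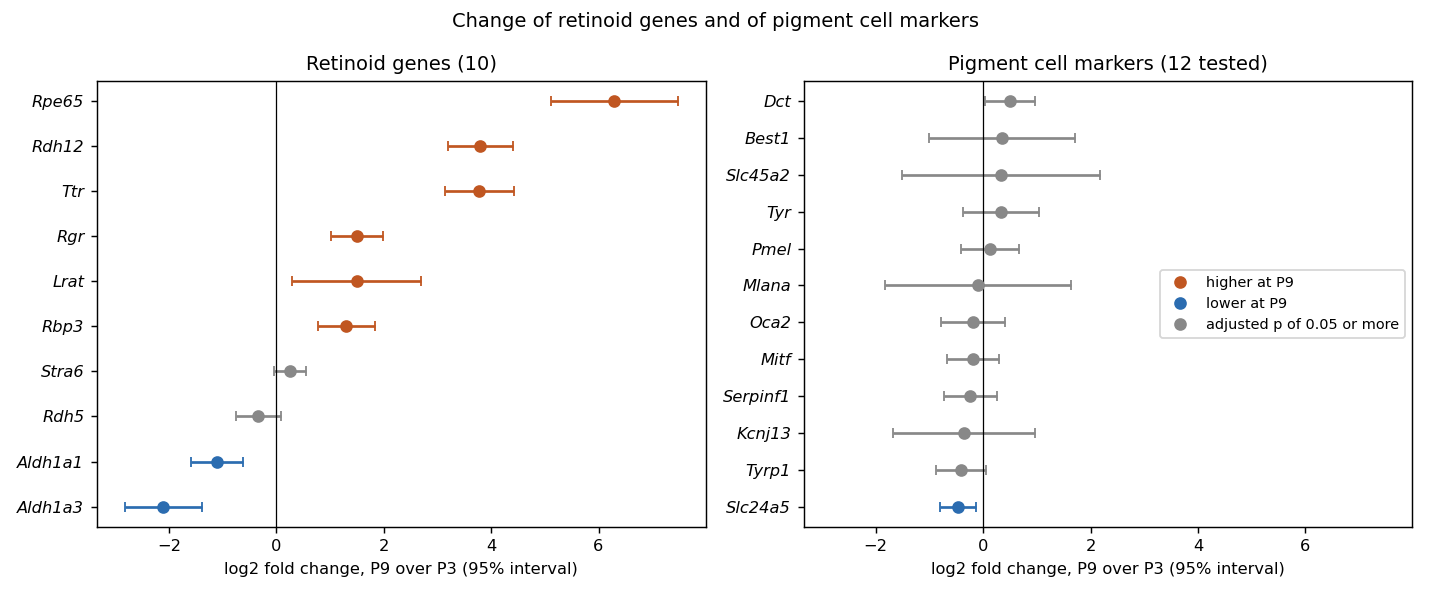
Log2 fold change of P9 over P3 with its 95% interval for the 10 retinoid genes (left) and the 12 tested markers of pigment epithelium and pigment cells (right). Rpe65, Rdh12, Ttr, Rgr, Lrat and Rbp3 lie to the right of 0 and Aldh1a1 and Aldh1a3 to the left, while 11 of the 12 pigment markers are grey, with values between -0.42 and 0.50.

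Because a ratio inside a library does not depend on the scaling between libraries, each gene of pigment epithelium was also set against the summed pigment cell markers of the same library. These ratios belong to a family of 9, each tested by exact permutation of the libraries' ages (two-sided) and adjusted over the 9. With 6 libraries per age, 0.00216 is the smallest p that the test allows. Rgr relative to the pigment sum rose by 1.49 on the log2 scale (exact permutation adjusted p = 0.0039), and its 6 P9 ratios lay above all 6 P3 ratios. The log2 ratio of Rpe65 to the pigment sum ran from -12.6 to -9.33 at P3 and from -4.78 to -3.82 at P9. These are given as a description, since 2 of the P3 ratios come from counts of 0 with 0.5 added and no exact difference can be read from them. Lrat relative to the pigment sum differed by 1.43 (exact permutation adjusted p = 0.0779), which passed only without P9 replicate 4 (difference 1.87, adjusted p = 0.0130). For Rdh5 the difference was -0.27 (exact permutation adjusted p = 0.186), and without P3 replicate 5 it was -0.42 and passed (adjusted p = 0.0195).

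**Figure D3:**
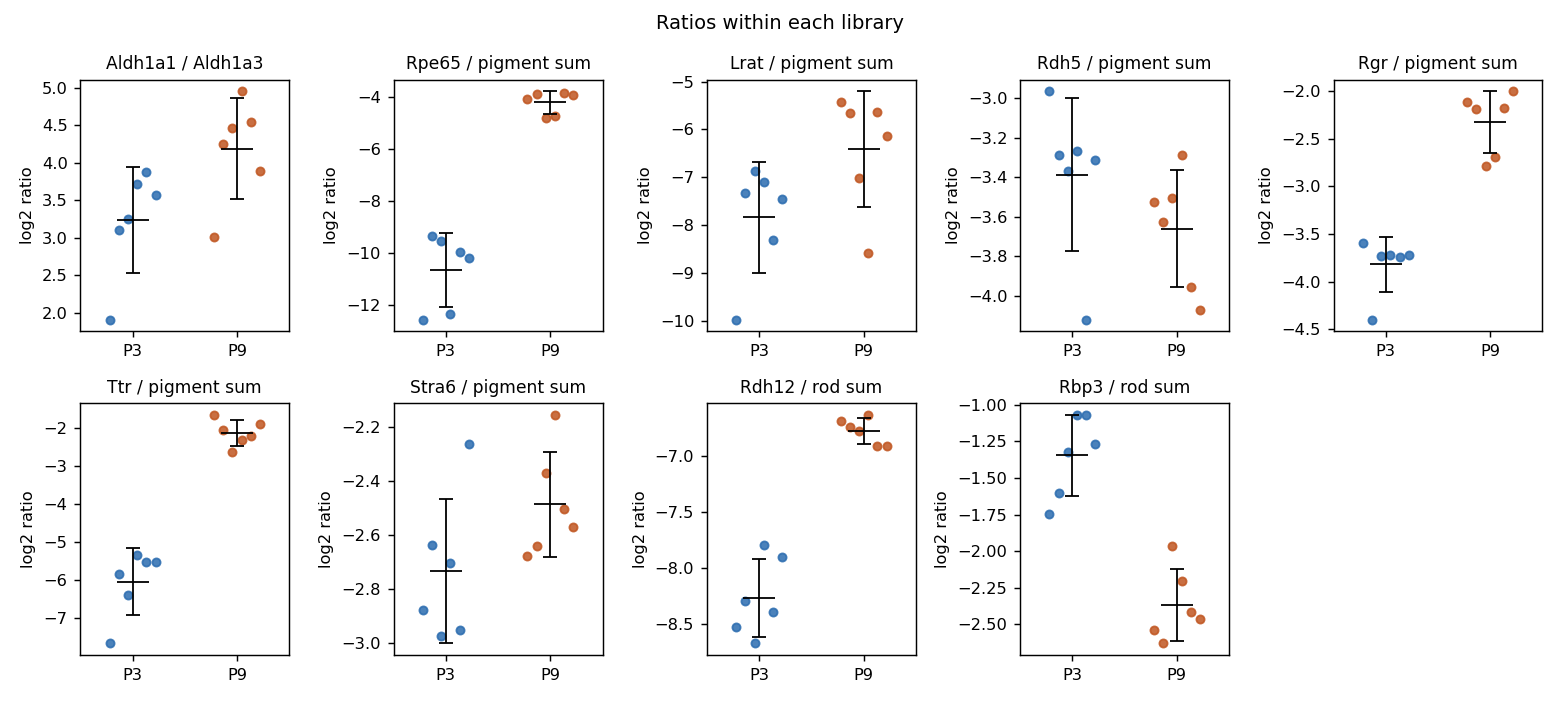
Log2 of the ratio within each library, for Aldh1a1 to Aldh1a3, for 6 genes to the summed markers of pigment epithelium and pigment cells and for 2 genes to the summed rod markers, in 6 P3 and 6 P9 libraries. Each point is a library, the mark and bar are the mean and 1 SD; the ages separate fully for Rpe65, Rgr, Ttr, Rdh12 and Rbp3, the last of these downward.

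Both genes of the photoreceptor side rose, by different amounts. Rdh12 (ENSMUSG00000021123.12, chromosome 12, 79208913 to 79222664) encodes a photoreceptor dehydrogenase that reduces toxic retinal. Its lowest, median and highest levels were 4.73, 9.52 and 18.6 CPM at P3 and 94.7, 148 and 166 CPM at P9. The ages were widely apart, with P3 replicate 4 the highest of its age. The mean rose from 9.98 ± 4.91 to 140 ± 29.8 CPM (means ± SD of 6 libraries each), giving a log2 fold change of 3.80 ± 0.28 (SE; edgeR adjusted p = 1.08e-07).

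Rbp3 (ENSMUSG00000041534.8, chromosome 14, 33954003 to 33964219) encodes the interphotoreceptor retinoid-binding protein, which photoreceptors secrete and which ferries retinoids between them and the pigment epithelium. It was already abundant at P3, from 682 to 1963 CPM around a median of 961, and ran from 2292 to 3645 CPM around a median of 2797 at P9. P3 replicates 4 and 5 (1963 and 1814 CPM) came closest to the P9 libraries without reaching them. The mean rose from 1192 ± 556 to 2949 ± 571 CPM (means ± SD of 6 libraries each), giving a log2 fold change of 1.31 ± 0.25 (SE; edgeR adjusted p = 0.000512). Without P3 replicates 4 and 5 the log2 fold change was 1.81.

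Rod markers rose in the same libraries: 17 of 17 tested were higher at P9, with a sum of 1925 to 4118 CPM at P3 and 10397 to 19992 CPM at P9 and a median log2 fold change of 3.08. Among 11 cone markers, 7 rose, 1 fell and 3 did not pass, and their sum went from 987 to 1211 CPM at P3 to 1228 to 1748 CPM at P9. Relative to the rod sum of the same library, Rdh12 rose by 1.48 on the log2 scale and Rbp3 fell by 1.02 (exact permutation adjusted p = 0.0039 for each). Rdh12 therefore gained more than the rod markers as a sum and Rbp3 gained less. Among libraries of one age, both genes followed the rod sum, with a Pearson correlation of 0.89 for Rdh12 and 0.85 for Rbp3 over the deviations of 12 libraries from the means of their age. Such values share library and depth and are given as a description.

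Of the transport and uptake genes, Ttr rose steeply and Stra6 did not pass. Ttr (ENSMUSG00000061808.3, chromosome 18, 20664209 to 20674326) encodes transthyretin, the carrier of thyroid hormone and, through retinol-binding protein, of retinol, known from liver, choroid plexus and pigment epithelium. Its lowest, median and highest levels were 0.495, 1.51 and 2.34 CPM at P3 and 14.05, 21.4 and 27.1 CPM at P9. No P9 library came near the P3 range. The mean rose from 1.49 ± 0.666 to 20.6 ± 5.10 CPM (means ± SD of 6 libraries each), giving a log2 fold change of 3.78 ± 0.30 (SE; edgeR adjusted p = 1.69e-07). Relative to the pigment sum it rose by 3.91 on the log2 scale (exact permutation adjusted p = 0.0039).

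Markers of choroid plexus, another source of Ttr, summed to 38.4 CPM in P3 replicate 1 and to 9.496 to 17.9 CPM in the other P3 libraries. At P9 the sum was 20.8 to 44.0 CPM. Of the list, 1 of 6 was higher and 5 were not past the threshold, and their part in the rise of Ttr was not tested. The one that rose was Kcne2, a potassium channel subunit gene, from 2.50 ± 0.794 to 21.2 ± 7.18 CPM (SD over 6 libraries). Aqp1, the next most abundant of the list, was at 9.21 ± 7.03 CPM at P3 and 6.72 ± 2.80 CPM at P9. Clic6 was at 2.98 ± 2.69 and 3.44 ± 0.986 CPM. Folr1 was at 2.66 ± 0.886 and 1.72 ± 1.05 CPM, and Kl at 0.247 ± 0.277 and 0.633 ± 0.384 CPM. The higher sum at P9 thus followed Kcne2 and does not show that the list as a whole rose. Within an age the Pearson correlation of Ttr was 0.79 with the summed Müller glia markers, 0.72 with rod, 0.17 with pigment cell and -0.31 with choroid plexus markers, a description over 12 libraries. The Spearman (rank) correlations were 0.73, 0.85, 0.39 and 0.12, so the sign with choroid plexus depended on the measure. The gene of its partner, Rbp4, which binds retinol in plasma, was too low to be tested, at 0.147 ± 0.186 CPM at P3 and 0.181 ± 0.235 CPM at P9.

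Stra6 (ENSMUSG00000032327.14, chromosome 9, 58063793 to 58154004), the membrane receptor through which cells take up retinol from its plasma carrier, stood at 10.99, 13.1 and 16.6 CPM at P3 and 11.8, 16.2 and 19.0 CPM at P9 (lowest, median, highest). The ages overlapped over most of their range. The log2 fold change was 0.25 with a 95% interval from -0.041 to 0.55 (edgeR adjusted p = 0.139). Relative to the pigment sum the difference was 0.25 (exact permutation adjusted p = 0.110). It passed without P3 replicate 6 (difference 0.34, adjusted p = 0.0162) and with the sum taken without Pmel (difference 0.32, adjusted p = 0.0422). Among libraries of one age the Pearson correlation with the pigment sum was 0.70 for Stra6, 0.72 for Rgr, 0.54 for Rpe65, 0.51 for Rdh5 and 0.29 for Lrat. Except for Stra6, another list came closer: microglia for Rgr (0.73), astrocytes for Rpe65 (0.70), fibroblasts and meninges for Rdh5 (0.60) and Müller glia for Lrat (0.76). The values of Rpe65 and Lrat rest on few counts at P3, 0 to 4 and 3 to 22 per library.

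Both retinaldehyde dehydrogenases fell. Aldh1a1 (ENSMUSG00000053279.7, chromosome 19, 20492583 to 20643463), the enzyme of the dorsal embryonic retina, stood at 44.4, 59.1 and 66.1 CPM at P3 and 14.05, 29.6 and 38.9 CPM at P9 (lowest, median, highest). Every P9 library was below every P3 library, and P9 replicates 1 and 4 (14.4 and 14.05 CPM) were well below the other P9 libraries. The mean fell from 57.9 ± 7.50 to 27.0 ± 10.5 CPM (means ± SD of 6 libraries each), giving a log2 fold change of -1.10 ± 0.23 (SE; edgeR adjusted p = 0.000833). Some of its reads could belong to its near-identical neighbour Aldh1a7, since the expected counts of Aldh1a1 were not whole. Aldh1a7 fell as well, from 3.94 ± 1.43 to 2.12 ± 0.753 CPM (edgeR adjusted p = 0.0230), a call lost without P3 replicate 4 (adjusted p = 0.0662).

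Aldh1a3 (ENSMUSG00000015134.15, chromosome 7, 66390892 to 66427477), the enzyme of the ventral retina, stood at 4.10, 5.82 and 11.9 CPM at P3 and 0.453, 1.63 and 2.05 CPM at P9. The ages did not overlap, and P3 replicate 1 was the highest of all. The mean fell from 6.51 ± 2.82 to 1.51 ± 0.551 CPM (means ± SD of 6 libraries each), giving a log2 fold change of -2.11 ± 0.34 (SE; edgeR adjusted p = 0.000105). Aldh1a2, the third enzyme of this family, was too low to be tested, at 0.477 ± 0.580 and 0.224 ± 0.200 CPM.

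The ratio of Aldh1a1 to Aldh1a3 within a library was higher at P9 by 0.95 on the log2 scale, which did not pass (exact permutation adjusted p = 0.0552), so the larger fall of Aldh1a3 was not separated from that of Aldh1a1. It passed without P3 replicate 5 (difference 1.08, adjusted p = 0.0362) or without P9 replicate 1 (difference 1.19, adjusted p = 0.00649), and without both P3 replicates 4 and 5 (difference 1.23, adjusted p = 0.0429).

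Several other markers fell with these enzymes. Of 5 genes of the dorsal retina 5 fell, among them the transcription factor gene Tbx3 from 68.4 ± 9.47 to 28.0 ± 4.33 CPM, and of 4 genes of the ventral retina 3 fell, among them the receptor gene Ephb2 from 180 ± 18.6 to 88.9 ± 10.2 CPM (SD over 6 libraries). Among the dorsal genes the call of Tbx2 was lost without P3 replicate 2, P9 replicate 4 or P9 replicate 5 (adjusted p of 0.0521, 0.0513 and 0.0521), and that of Tbx5 with no low-count filter (0.0510) and without P3 replicates 4 and 5 (0.0603) or P9 replicates 5 and 6 (0.0742). Of 10 lens markers 10 fell, and their sum was 3404 to 9951 CPM at P3 and 46.4 to 1218 CPM at P9. Of 10 retinal progenitor markers 9 fell and 1 rose, with sums of 2103 to 6609 and 900 to 1119 CPM. The part of lens or progenitor RNA in the fall of the 2 enzymes was not tested.

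Beyond these 10 genes, 52 other genes of the pathway were listed by role, all of them in the files and 42 tested. Of these 42, 19 rose, 17 fell and 6 did not pass, a median log2 fold change of 0.23, against 51.8% of all genes passing. Among 16 tested enzymes of the visual cycle and of retinol or retinal, 11 rose, 2 fell and 3 did not pass. Of these calls, Retsat was lost in 8 of 12 fits with 1 library left out, and Rdh10 and Bco2 in 2 each. Rdh8, the dehydrogenase of photoreceptor outer segments, rose from 4.02 ± 1.34 to 49.1 ± 13.5 CPM, with SD over 6 libraries, and its log2 fold change was 3.60 ± 0.24 (SE; edgeR adjusted p = 4.26e-08). Abca4, which moves retinal across the outer segment disc membrane, rose 7.58-fold to 670 ± 187 CPM. Dhrs3, which turns retinal back into retinol and so limits retinoic acid, rose 6.94-fold to 72.5 ± 15.4 CPM. Rlbp1, the retinal-binding protein of pigment epithelium and Müller glia, rose 1.79-fold to 253 ± 32.4 CPM. The opsin gene Rrh, called peropsin, fell from 45.6 ± 15.8 to 22.6 ± 2.58 CPM, opposite to Rgr.

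Among 9 tested genes of retinoid binding and transport, 4 rose, 4 fell and 1 did not pass, against 51.8% of all genes passing. Leaving out 1 library at a time ended the calls of Lpl and Stra6l in 7 of 12 fits each and that of Crabp2 in 4, and gave one to Lrp2 in 2. Scarb1, a lipoprotein and carotenoid receptor, rose 1.65-fold to 126 ± 18.3 CPM. Crabp1, which binds retinoic acid in the cytosol, fell from 28.2 ± 8.67 to 14.5 ± 1.28 CPM, and Fabp5, which also carries fatty acids, from 105 ± 22.7 to 47.6 ± 11.6 CPM (SD over 6 libraries).

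Among 5 tested genes of retinoic acid synthesis and breakdown, 0 rose, 4 fell and 1 did not pass. Over all tested genes 51.8% passed, 26.1% higher and 25.6% lower at P9. Cyp26a1, which degrades retinoic acid, stood at 14.05, 22.6 and 25.7 CPM at P3 and 4.05, 5.71 and 8.24 CPM at P9 (lowest, median, highest). The ages did not overlap. Its log2 fold change was -1.82 ± 0.21 (SE; edgeR adjusted p = 5.11e-06). Cyp26c1, a relative, fell from 3.50 ± 1.62 to 0.922 ± 0.169 CPM, whereas Cyp26b1, the third of the family, was at 2.45 ± 0.752 and 3.19 ± 0.885 CPM and did not pass (edgeR adjusted p = 0.242). Cyp1b1, an enzyme that can also oxidise retinol, fell from 45.6 ± 5.24 to 26.0 ± 1.19 CPM. The fall of synthesis and breakdown genes is a count of genes, and retinoic acid itself was not measured.

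Receptor genes moved in both directions. Of 12 tested receptor and cofactor genes, 4 rose, 7 fell and 1 did not pass, against 51.8% of all genes passing. For Nrip1, among those that rose, the call was lost in 5 of 12 fits with 1 library left out. Rarb, itself a textbook target of retinoic acid, fell from 5.44 ± 0.525 to 3.39 ± 0.701 CPM (SD over 6 libraries), with no overlap between the ages. Rarg rose from 6.19 ± 2.61 to 10.8 ± 2.86 CPM, and Rara was at 47.5 ± 6.19 and 41.3 ± 4.67 CPM (edgeR adjusted p = 0.108). Without P3 replicate 1 the difference in Rara passed (adjusted p = 0.0407). Rxrg, a partner receptor found in cones and ganglion cells, fell from 17.6 ± 1.72 to 7.20 ± 1.53 CPM, the largest change among the 6 receptors. Rxrb fell from 92.7 ± 8.82 to 71.4 ± 5.28 CPM. Rxra rose from 51.5 ± 5.76 to 59.3 ± 4.04 CPM (edgeR adjusted p = 0.0472), a call lost in 9 of the 12 fits with 1 library left out. The coactivator gene Ncoa3 fell from 90.0 ± 5.97 to 71.2 ± 4.93 CPM.

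**Figure D4:**
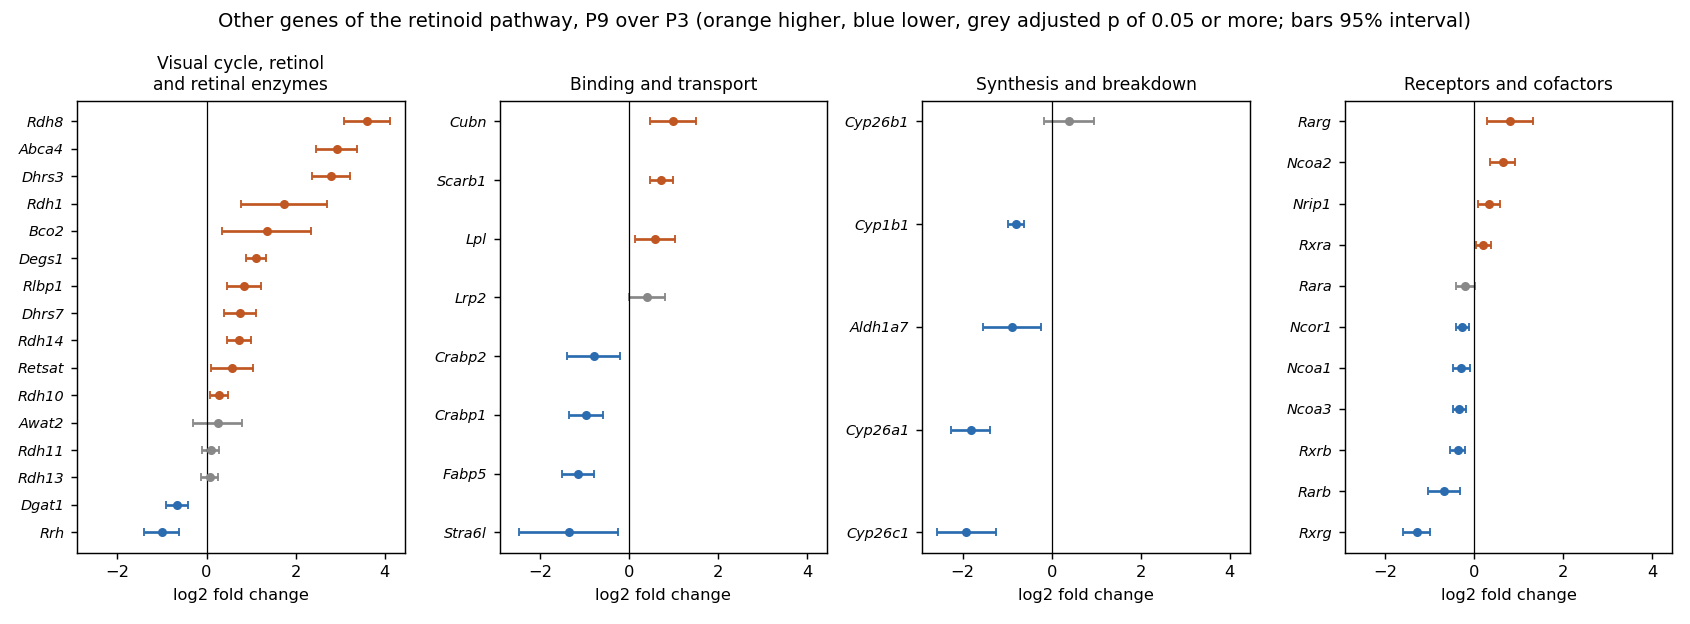
Log2 fold change of P9 over P3 with its 95% interval for the other tested genes of the retinoid pathway that are reported here, in 4 panels by role. Most enzymes of the visual cycle lie right of 0, with Rdh8, Abca4 and Dhrs3 farthest, while Cyp26a1, Cyp26c1 and Rxrg lie left of it.

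The promoters of Cyp26a1 and Rarb hold the kind of element to which retinoic acid receptors bind, a pair of short elements in the same direction with 5 bases between them. Each element was AGGTCA or AGTTCA, or else the form GGGTCA or the form GGTTCA. This wider set was chosen after the data were seen, and was searched with 5 and with 2 bases between the elements. The pair spaced by 5 is shown because both genes are textbook targets and both fell. Any part of this element in their falls was not tested. The elements are in capitals, and those of Cyp26a1 lie on the opposite strand. Both stretches lie before a start site that is inside the gene span.
Cyp26a1, chr19:37697748-37697807, plus strand: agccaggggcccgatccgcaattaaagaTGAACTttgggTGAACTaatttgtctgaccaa
Rarb, chr14:16575497-16575556, minus strand: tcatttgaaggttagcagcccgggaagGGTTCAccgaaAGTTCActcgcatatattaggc
Of the 32851 promoter windows 32 (0.097%) hold such a pair on either strand, among them 2 of 41 pathway genes with a window and 0 of the 8 described above. With 2 bases between the elements, 88 windows (0.268%) held a pair, with 0 of the 41 genes and 0 of the 8. None of these libraries measured binding at these sites.

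The genes that varied most like each retinoid gene among libraries of one age were sought for all but Lrat, which was below 1 CPM on average. The measure was the Pearson correlation of log2 CPM after the mean of each age was removed, over 12 libraries and 13647 candidate genes of at least 1 CPM. Lgmn (0.98) was among the closest to Rbp3, and Rdh12 was closest to Fam53c (0.96), Prph2 (0.95) and Mxd1 (0.94). Ttr was closest to Slc39a12 (0.96), Cyfip2 and Nfatc2 (0.94 each). For Rpe65 they were Larp4b (0.91), Wisp3 (0.91) and Cisd2 (0.88), and for Rgr Adrb1 (0.91), Lrtm1 and Psd4 (0.88 each). Every correlation of Rpe65 rests at P3 on 0 to 4 counts per library, where its deviations cannot be told from counting error. Stra6 was nearest to Tcp11l1 (0.91), Gstm2 (0.86) and Notum (0.84), and Rdh5 to Mustn1 (0.95), Uimc1 (0.92) and Caps2 (0.89). Aldh1a1 was nearest to Slc9a9 (0.91), Foxd1 (0.88) and Prps2 (0.87), and Aldh1a3 to Ppp1r35 (0.92), Kcnn2 and Asl (0.89 each). Among the 10 genes themselves the closest pair was Rbp3 and Rdh12 (0.84), followed by Rbp3 and Ttr (0.74) and by Rpe65 and Lrat (0.70). Rdh5 ran against Rbp3 (-0.59) and Rdh12 (-0.59), and the 2 retinaldehyde dehydrogenases shared little (0.31). All 12 values behind each correlation share their libraries and depth, and they are descriptions only.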

How the data were processed

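RNA from 12 libraries of HA-tagged ribosome immunoprecipitates was analysed, 6 at P3 and 6 at P9, grouped by the age in the labels. The deposited values are expected counts per gene (estimated by RSEM, per the names of the deposited tables), not scaled to depth; 15.9% are not whole. The submitters' processing notes list STAR, RSEM, limma, FastQC and Trim Galore and the build mm10. Versions, roles and annotation: not given in the sources used here. The expected counts were rounded, filtered by filterByExpr (18638 genes tested, 34452 removed), and scaled by TMM. P9 was set against P3 by edgeR (4.0.16, R 4.3.3; quasi-likelihood test), p-values were adjusted by Benjamini-Hochberg across the genes tested, and 0.05 was the threshold. Fold changes are P9 over P3, CPM is TMM-scaled, and the SE is |log2 fold change| / sqrt(F). Ratios used an exact permutation test over libraries, with 0.5 counts added for Rpe65, which had counts of 0. For likeness, the prior count in log2 CPM was 2.

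The members and lists were chosen with earlier results of these data known. All members were named. Some genes that the naming rules select are not reported here. Of the other pathway genes the 3 with the smallest adjusted p of each list, the Cyp26 and receptor genes and some further called genes of at least 1 CPM were named; of marker lists the most abundant genes. Aldh1a2, Rbp4, Best1, Folr1, Kl, Tbx2, Tbx3, Tbx5, Ephb2, Bco1, Bco2, Lrp2, Rdh1 and Stra6l were named after their values were seen. Coordinates and promoter sequences are those of RefSeq on GRCm38.p6, matched by symbol; 8 of the 10 members had a promoter window. Levels per transcript length were planned and not computed, since the reference used here gives only gene spans.

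The alternatives were other scaling factors, other filters, DESeq2 1.42.0, a robust fit, limma-voom weighting each library by quality (limma 3.58.1), omission of single libraries, marker sums without their most abundant gene and, added after seeing the data, leaving out P3 replicates 4 and 5 or P9 replicates 5 and 6. Each of these pairs was the most alike of its age, by the mean chi-square per gene between the counts of a pair. It was 21.6 for the P3 pair and at least 40.8 for other P3 pairs. For the P9 pair it was 16.1, and at least 25.3 for other P9 pairs. Whether such a pair shares an animal or a preparation is not known, and the tests counted each library as independent. Replicates were numbered in deposition order. Counts for P9 against P3 were simulated over 18270 genes. From these edgeR recovered 40% of 1.5-fold, 58% of 2-fold, 82% of 4-fold and 94% of 8-fold changes. Of the calls made, 5.52% were false. Far fewer genes were changed in the simulation than the 51.8% that passed in the data. The adjustment of p-values was therefore stricter there, and these rates do not describe the real comparison.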

Additional observations from a re-analysis of the deposited data

Results flagged for a closer look

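In groups of 6 libraries, 4 of 38 sets of values had a library far from the other 5, judged by the gap to its nearest neighbour over the whole range; chance gives about 1 in 20. Aldh1a3 stood at 11.9 CPM in P3 replicate 1, with the next library at 6.71 CPM. The fibroblast and meninges markers summed to 560 CPM in that library and to 105 to 174 CPM in the other P3 libraries, and choroid plexus markers to 38.4 CPM against 9.496 to 17.9 CPM. The within-age Pearson correlation of Aldh1a3 was 0.36 with the first list and 0.68 with the second, over 12 libraries, and the part of either was not tested. Aldh1a3 stood at 0.453 CPM in P9 replicate 4, from 15 counts, with the next library at 1.51 CPM. Its log2 fold change of -2.11 ran from -2.21 to -1.85 when each library was left out. The log2 ratio of Rdh5 to the pigment sum was -4.12 in P3 replicate 5, against -3.37 in the next library. The log2 ratio of Rgr to the pigment sum was -4.40 in P3 replicate 2, against -3.74 in the next library.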

How the results depend on the processing

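Under 23 alternatives, 6 or 5 retinoid genes were called higher at P9 and 2 lower. Rpe65 is counted among those called higher, although it passed the filter of the main fit only through P9, which fixed its call there. The gene lost was Lrat, which kept its direction wherever it was tested and was not tested with a minimum mean of 1 CPM; it was also not called with no low-count filter (adjusted p = 0.0624), without P3 replicates 4 and 5 (0.0919) or without P9 replicates 5 and 6 (0.163). Rdh12, Rbp3, Ttr, Rgr, Aldh1a1 and Aldh1a3 kept direction and call under every alternative run, and Rdh5 and Stra6 stayed short of the threshold by edgeR, DESeq2 and limma-voom. Genes called over all genes ran from 4099 to 5113 higher and from 4022 to 5210 lower. Other pathway genes ran from 13 to 20 higher and from 15 to 18 lower, and of 63 single genes followed, 47 changed no call. The ratios of Rgr, Ttr, Rdh12 and Rbp3 kept direction and call. With 1 library left out, the difference in log2 ratio ran from 0.69 to 1.19 for Aldh1a1 to Aldh1a3, and relative to the pigment sum from 1.002 to 1.87 for Lrat, -0.42 to -0.19 for Rdh5 and 0.18 to 0.34 for Stra6. Without Pmel the Stra6 difference was 0.32 and passed. Without P3 replicates 4 and 5 the Aldh1a1 to Aldh1a3 difference was 1.23 and that of Rdh5 -0.43, and both passed; the causes were not tested. The alternative for levels per transcript length was not run, since no transcript lengths were used here. No paired analysis was possible because replicate numbers here follow deposition order and are not shared between ages. Depth limits Rpe65 at P3 (11 counts in all) and Lrat, and levels below about 1 CPM carry wide relative errors.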
